A study of Mus musculus with 9 samples.

Results

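Cadherins and protocadherins are cell surface proteins by which cells hold on to each other. Their transcripts were followed here in mouse brain as 56 genes: every gene with a probe set of its own on the array whose symbol is Cdh and a number or begins with Pcdh, leaving out the endothelial Cdh5, among 19938 genes measured in the same way. They fell into 17 classical cadherins (5 of type I and 12 of type II), 5 other Cdh genes, 22 clustered protocadherins and 12 non-clustered protocadherins. For the 4 members with a second probe set the brighter one stood for the gene. All 22 clustered members were beta genes, since no alpha or gamma gene had a probe set to itself.

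Total RNA was measured on 9 Affymetrix mouse gene arrays, 3 per group. Wild-type B6SJLF1/J mice received PBS, 5xFAD mice received PBS, and further 5xFAD mice received human amylin, a hormone that pancreatic islets release together with insulin. Injections were intraperitoneal and daily for 10 weeks, and all mice were about 5 months old. The 5xFAD line carries human transgenes driven in neurons by the Thy1 promoter, so it models amyloid deposition in an otherwise mouse brain. The labels call the arrays of a group biological replicates and do not say whether litters or handling were shared, so the p-values measure the spread between these samples.

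Classical cadherins bind the same or a similar cadherin on the neighbouring cell in the presence of calcium and are tied to actin through beta-catenin and alpha-catenin. Type I members such as N-cadherin are spread widely, whereas type II members mark particular neuron groups and brain regions. Clustered protocadherins are chosen in different combinations by single neurons and let a neuron tell its own branches from those of others. Non-clustered protocadherins, among them the delta-1 and delta-2 families, are expressed in region-specific and layer-specific patterns and act in axon growth and synapse formation. All values below are log2 values, a difference is a difference of group means on that scale with its standard error (SE) from limma, and a member is said to have risen or fallen at a Benjamini-Hochberg adjusted p under 0.05 over all genes.

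The labels give brain tissue and cortex, and the cortical marker list had means of its 12 measured genes from 8.69 to 8.97, overlapping between groups. Its genes moved in both directions on PBS against wild type, where Foxp1 (0.49) and Cux1 (0.28) rose and Fezf2 (-0.62) and Slc17a7 (-0.23) fell. Markers of other regions differed as well. The 12 striatal markers averaged 7.21 to 7.48 on the wild-type arrays, 8.72 to 8.94 on the PBS 5xFAD arrays and 8.73 to 8.83 on the amylin arrays, and 11 of them were past the threshold as higher in both 5xFAD groups. The 12 hippocampal markers (7.46 to 7.56, 6.80 to 6.84 and 6.79 to 6.88) and the 13 thalamic markers (8.10 to 8.40, 7.21 to 7.39 and 7.08 to 7.65) averaged lower in 5xFAD; on PBS against wild type 8 and 11 of them fell, while the hippocampal Tyro3 rose (0.23). Olfactory bulb markers, also 12 genes, scattered among the 5xFAD arrays: the list averaged 7.81, 6.39 and 6.98 on the PBS arrays and 7.57, 6.69 and 7.69 on the amylin arrays, against 5.96 to 6.22 in wild type. All 12 microglial markers rose, from list means of 6.39 to 6.44 in wild type to 7.81 to 8.43 on PBS. Oligodendrocyte markers averaged 8.78 to 8.94 in wild type, 8.59 to 8.69 on PBS and 8.42 to 8.54 with amylin. Because the striatal, hippocampal, thalamic, olfactory bulb, microglial and oligodendrocyte list means separate the genotypes completely, their part in a difference of the members from wild type cannot be told apart from the transgenes, and in bulk RNA fewer cells of a type and less RNA per cell cannot be told apart either. The same holds for the olfactory bulb list mean when it is used below as a term in the model: it differs between the genotypes, so a call kept or lost with that term does not separate region from genotype. The median SE of a difference over all genes was 0.07, and the number of arrays limits the precision.

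**Figure D1:**
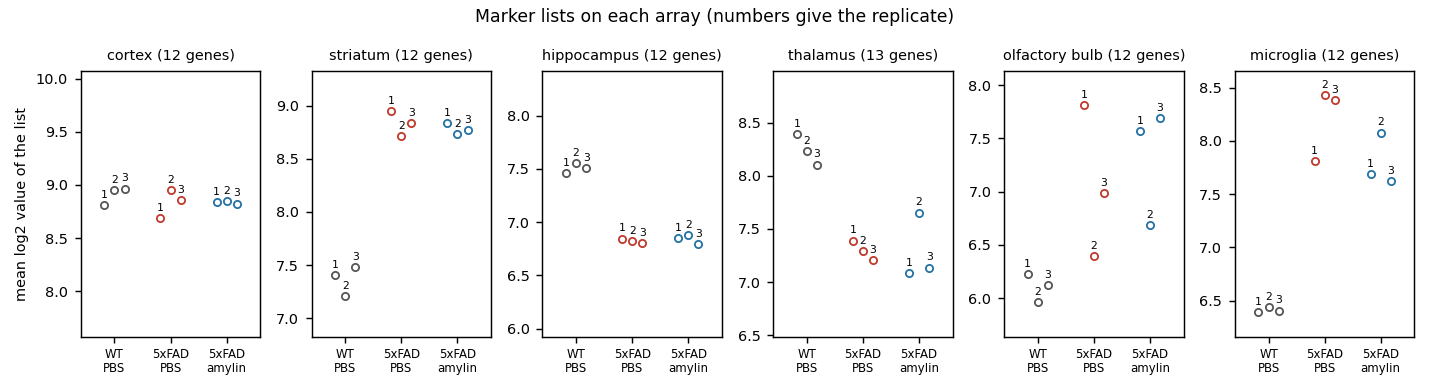
Mean log2 value of 6 marker lists on each of the 9 arrays (vertical axis), by group (horizontal axis); numbers give the replicate, and each panel has its own range. Cortical markers overlap between groups, the other 5 lists separate wild type from both 5xFAD groups, and olfactory bulb markers range from 6.39 to 7.81 within the PBS group.

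The first comparison asks how the members differ between 5xFAD and wild-type mice when both received PBS. In this comparison 6 members fell and none rose: the non-clustered Pcdh20, Pcdh19, Pcdh8 and Pcdh1 and the type II cadherins Cdh20 and Cdh24. These 6 of 56 are 10.7%, beside 8.58% of all genes that passed in either direction, 4.92% as lower and 3.66% as higher. Without wild-type array 3 the count was 3, where 996 of all genes passed in place of 1710. Among non-clustered protocadherins 4 of 12 fell (33.3%), among classical cadherins 2 of 17 (11.8%), and none of the 22 clustered or the 5 other Cdh genes passed in limma. The median difference was -0.10 for the non-clustered members, 0.0082 for the classical, 0.03 for the clustered and 0.03 for the other Cdh genes, against -0.0099 over all genes. Between PBS 5xFAD and wild type, 11 of the 56 members had all 3 transgenic arrays below all 3 wild-type arrays and 6 had them above, where 15.6% and 11.2% of all genes did so (26.8% together).

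The promoter windows of the 3 members with the largest falls, and of Pcdh8 as the 1 called member whose window holds a TATA box, show how unlike the starts of these genes are. Each window covers 300 bases around the RefSeq gene start in GRCm38.p6, most of them upstream, is printed 5′ to 3′ on the gene's strand, and has in capitals any GC box (GGGCGG), CRE half-site (TGACG) or TATA box (TATAAA) found on either strand.
Pcdh20, chr14:88471347-88471646, minus strand: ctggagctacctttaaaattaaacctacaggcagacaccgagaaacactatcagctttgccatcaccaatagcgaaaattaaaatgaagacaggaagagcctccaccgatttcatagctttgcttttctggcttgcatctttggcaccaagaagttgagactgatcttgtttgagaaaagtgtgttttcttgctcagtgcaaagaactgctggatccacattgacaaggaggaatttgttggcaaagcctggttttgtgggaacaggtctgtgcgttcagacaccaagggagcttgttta
Pcdh19, chrX:133688944-133689243, minus strand: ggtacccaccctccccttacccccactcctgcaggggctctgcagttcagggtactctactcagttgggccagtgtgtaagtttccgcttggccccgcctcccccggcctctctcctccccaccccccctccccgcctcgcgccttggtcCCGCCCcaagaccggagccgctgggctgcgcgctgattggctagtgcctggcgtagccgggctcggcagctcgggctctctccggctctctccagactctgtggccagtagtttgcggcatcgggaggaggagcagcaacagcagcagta
Cdh20, chr1:104768270-104768569, plus strand: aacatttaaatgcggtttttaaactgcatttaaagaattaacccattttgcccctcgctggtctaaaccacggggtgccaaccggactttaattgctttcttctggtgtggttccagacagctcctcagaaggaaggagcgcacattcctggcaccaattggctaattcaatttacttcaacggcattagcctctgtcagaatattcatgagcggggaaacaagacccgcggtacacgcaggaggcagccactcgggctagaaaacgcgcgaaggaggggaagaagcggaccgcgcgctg
Pcdh8, chr14:79771263-79771562, minus strand: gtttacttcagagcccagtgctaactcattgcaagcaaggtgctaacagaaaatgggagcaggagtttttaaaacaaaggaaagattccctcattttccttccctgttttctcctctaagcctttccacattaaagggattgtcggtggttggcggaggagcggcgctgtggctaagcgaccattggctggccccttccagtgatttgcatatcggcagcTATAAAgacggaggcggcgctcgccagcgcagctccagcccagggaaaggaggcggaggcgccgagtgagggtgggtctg
The Pcdh19 window has 67.7% G and C with 1 GC box, the Pcdh8 window 54.3% with 1 TATA box, and the Cdh20 (50.7%) and Pcdh20 (43.7%) windows hold none of the 3 motifs. RefSeq windows were matched for 22 of the 56 members, 25 windows in all. A GC box stood in 36% of them and in 35.7% of the 32851 windows of all genes, a CRE half-site in 16% and 20.8%, and a TATA box in 8% and 13.6%. The letters are a description of these windows and say nothing of which factors act there.

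Pcdh20, a non-clustered protocadherin known from the granular layer of sensory cortex, had the largest fall among the members. Its probe set 10421911 read 8.17, 8.27 and 8.17 on the wild-type arrays, 7.59, 6.96 and 7.25 on the PBS 5xFAD arrays and 7.63, 7.17 and 7.59 on the amylin arrays. Every 5xFAD array lay below every wild-type array, and both 5xFAD groups were more spread than wild type. The group means were 8.20 ± 0.06 (SD, n = 3) and 7.27 ± 0.31 (SD, n = 3), so that Pcdh20 fell by 0.94 ± 0.16 (SE), to 52.2% of the wild-type level (limma adjusted p = 0.00691, 95% interval -1.29 to -0.58). It passed under all 20 alternatives of the analysis. The lowest PBS array of Pcdh20, replicate 2, was also the lowest for olfactory bulb markers, and once the mean of the olfactory bulb list was added to the model the difference was -1.35 (adjusted p = 8.35e-05).

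Pcdh19 is an X-linked delta-2 protocadherin that partners with N-cadherin and whose loss of function causes an epilepsy of girls. Its values (probe set 10606600) were 7.51, 7.39 and 7.55 in wild type, 7.15, 6.53 and 6.60 in PBS 5xFAD and 6.86, 7.07 and 6.84 with amylin. The 3 groups of arrays fall into a high wild-type set and lower, mutually overlapping 5xFAD sets. The mean went from 7.48 ± 0.08 (SD, n = 3) to 6.76 ± 0.34 (SD, n = 3), a fall by 0.72 ± 0.14 (SE) to 60.7% (limma adjusted p = 0.0154, interval -1.05 to -0.40). The call was lost without wild-type array 1 (adjusted p = 0.0647) or 3 (0.0612) and without PBS array 2 (0.0527) or 3 (0.0639). Xist, the X inactivation RNA, read 9.85 to 10.41 on all 9 arrays. The Y-linked Eif2s3y, Kdm5d and Uty stayed between 2.49 and 3.33, so every array had a female pattern. Of these 4 sex-linked genes 1 had all amylin arrays above all wild-type arrays, without passing the threshold (smallest limma adjusted p of the 4 in that comparison 0.321).

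Pcdh8, also called arcadlin, is a delta-2 member induced by neuronal activity that takes N-cadherin off the synaptic surface. It read 6.15, 6.25 and 6.45 in wild type, 5.98, 5.73 and 5.98 in PBS 5xFAD and 6.03, 6.08 and 6.02 with amylin (probe set 10421863). The wild-type arrays were the highest, and the amylin arrays stood in a narrow band between the other groups. Pcdh8 fell by 0.38 ± 0.09 (SE), to 76.8% (limma adjusted p = 0.0305, interval -0.58 to -0.18). This call was lost in a fit of the 2 groups alone (adjusted p = 0.0763) and with the olfactory bulb term (-0.46 ± 0.12, SE, adjusted p = 0.0784). It was also lost without wild-type array 2 (0.0724) or 3 (0.0984) and without PBS array 2 (0.0848) or 3 (0.0556).

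Pcdh1, a delta-1 member known mainly from epithelia, had the smallest adjusted p of the 56. Its arrays were tight within groups: 5.65, 5.61 and 5.58 in wild type, 5.22, 5.22 and 5.26 in PBS 5xFAD and 5.28, 5.30 and 5.27 with amylin (probe set 10458534). No array of one group overlapped with another group. Pcdh1 fell by 0.38 ± 0.04 (SE), to 76.8% (limma adjusted p = 0.00101, interval -0.48 to -0.28), and passed in all alternatives that measure it.

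Of the 8 other non-clustered protocadherins, 3 had all PBS 5xFAD arrays above wild type without passing the threshold, where 11.2% of all genes were so separated. They were Pcdh11x (0.21, limma adjusted p = 0.208), Pcdh7 (0.18, 0.119) and Pcdh10, which recruits the actin regulator WAVE (0.17, 0.2). Pcdh9, in the genome the direct neighbour of Pcdh20, had all PBS arrays below wild type (10.19, 10.34 and 10.20 against 9.94, 10.18 and 10.11), a difference of -0.16 ± 0.07 (SE, adjusted p = 0.231). On its second probe set, 10421924, the PBS and wild-type arrays of Pcdh9 overlapped (-0.14 ± 0.08, SE, limma adjusted p = 0.408 over all probe sets). By the brighter probe sets 2 delta-1 members had separated arrays with lower means and 2 with higher means, where 26.8% of all genes were separated in either direction. The delta-1 family as a whole had a median of 0.0086. The endothelial Pcdh12 (-0.20, adjusted p = 0.477), Pcdh18 (-0.04), Pcdh17 (-0.03) and Pcdh15, a tip link protein of inner ear hair cells (-0.03), had overlapping arrays.

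**Figure D2:**
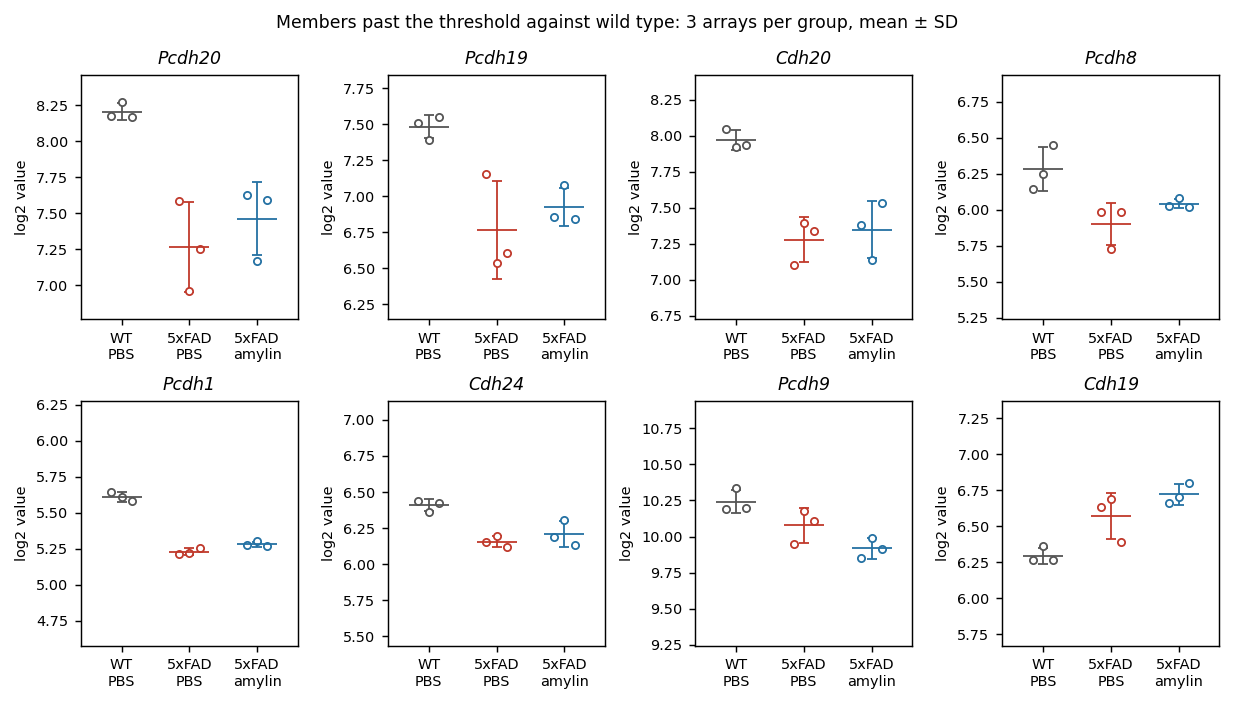
Log2 value on each array (open points) with mean ± SD (bars, n = 3) for the 8 members past the threshold in a comparison with wild type; the horizontal axis gives the group, and each panel spans its own range of log2 values. In the panels of Pcdh20, Pcdh19, Cdh20, Pcdh8, Pcdh1, Cdh24 and Pcdh9 every 5xFAD array lies below every wild-type array, and in the Cdh19 panel every 5xFAD array lies above.

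Among the classical cadherins, Cdh20 differed the most. This type II member (probe set 10348999) read 8.05, 7.93 and 7.94 in wild type, 7.10, 7.39 and 7.34 in PBS 5xFAD and 7.38, 7.14 and 7.53 with amylin. All 6 transgenic arrays lay below the wild-type arrays, and the 2 transgenic groups overlapped. From 7.97 ± 0.07 (SD, n = 3) to 7.28 ± 0.16 (SD, n = 3), Cdh20 fell by 0.69 ± 0.11 (SE), to 61.9% (limma adjusted p = 0.00424, interval -0.93 to -0.45), and it passed under all 20 alternatives.

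Cdh24, a type II cadherin that binds catenins like other classical members, showed a smaller fall. Its brighter probe set 10419814 gave 6.44, 6.36 and 6.42 in wild type, 6.15, 6.19 and 6.12 in PBS 5xFAD and 6.18, 6.31 and 6.13 with amylin, without overlap between wild type and 5xFAD. Cdh24 fell by 0.25 ± 0.06 (SE), to 83.9% (limma adjusted p = 0.0239). Its second probe set, 10415090, did not show this: the difference there was -0.03 ± 0.05 (SE, adjusted p = 0.837). The call was lost with the mean of both probe sets (-0.14, adjusted p = 0.109), with the olfactory bulb term (-0.19, 0.227), without wild-type array 1 (0.0938) or 3 (0.0852) and without PBS array 1 (0.0647) or 3 (0.0869).

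The remaining classical cadherins did not pass. N-cadherin (Cdh2), the main type I cadherin of synapses, read 10.05, 10.08 and 10.09 in wild type against 9.96, 9.94 and 9.79 in PBS 5xFAD, a separated but small difference of -0.18 ± 0.06 (SE, limma adjusted p = 0.102) that among the alternatives passed only with array weights (adjusted p = 0.0312). Cdh4 (R-cadherin) spread widely among the PBS arrays, at 8.09, 7.33 and 7.74, and E-cadherin (Cdh1), P-cadherin (Cdh3) and M-cadherin (Cdh15) differed by -0.06, 0.01 and 0.01. The type II Cdh10 was higher on all PBS 5xFAD arrays (9.64, 9.92 and 9.67) than on the wild-type arrays (9.37, 9.54 and 9.42), by 0.30 ± 0.09 (SE, adjusted p = 0.0849), and among the alternatives passed only with the dimmer 50% of genes left out (0.0474). Cdh19, known from Schwann cell precursors, was higher too, by 0.27 ± 0.08 (SE, adjusted p = 0.0682), and passed with the same filter (0.0376) and without PBS array 3 (0.37, 0.0174). The genes Cdh6, Cdh9, Cdh10 and Cdh12 follow each other in the genome, and their differences did not share a sign: -0.03, 0.22, 0.30 and -0.27. Cdh7 and Cdh19, also neighbours, differed by 0.02 and 0.27.

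The 5 other Cdh genes are a mixed group and none passed. T-cadherin (Cdh13), which is held by a lipid anchor and binds adiponectin, read 9.34, 9.14 and 9.36 in wild type and 9.40, 9.38 and 9.30 in PBS 5xFAD. Cdh23, the tip link partner of Pcdh15, had its PBS arrays below wild type (-0.13 ± 0.06, SE, limma adjusted p = 0.312). Cdh16, Cdh17 and Cdh26, known from kidney, gut and other epithelia, differed by 0.03, 0.04 and -0.02. Of these 5 genes 1, Cdh13, was brighter than the dimmer 50% of all genes, and the other 4 lay among the dimmer ones.

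The 22 beta protocadherins gave no call in this comparison. Their differences ran from -0.31 (Pcdhb2) to 0.22 (Pcdhb19), 9 below 0 and 13 above, and the smallest adjusted p was 0.241 (Pcdhb11, -0.26 ± 0.12, SE). No member had an unadjusted p under 0.05, against 21.2% of all genes. Only Pcdhb11 had all PBS arrays below wild type (5.57, 5.49 and 5.76 against 5.47, 5.12 and 5.44) and only Pcdhb20 had them all above (6.37, 6.31 and 6.48 against 6.53, 6.53 and 6.62), neither past the threshold. Of all genes 15.6% were separated as lower and 11.2% as higher. Of the 22, 7 lay above the dimmer 50% of genes.

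The beta genes varied within the groups. The median pooled SD was 0.134 for the clustered members, 0.124 for the non-clustered, 0.109 for the classical and 0.088 for all genes. Pcdhb3 had the widest spread, with PBS arrays of 7.10, 6.03 and 6.91 beside wild-type arrays of 6.71, 7.04 and 6.80. Pcdhb2 (6.73, 5.96 and 6.61) and Pcdhb6 (7.12, 6.21 and 6.85) were lowest on the same PBS array, replicate 2. That array was the lowest of its group for 11 of the 22 beta genes, 7 of the 12 non-clustered, 2 of the 17 classical members and 29.1% of all genes. It was also the PBS array lowest in olfactory bulb markers and highest in microglial markers. Without it Pcdhb6 (0.43, limma adjusted p = 0.0372) and Pcdhb8 (0.33, adjusted p = 0.0265) passed the threshold as higher, whereas without PBS array 1 the Pcdhb6 difference was -0.03. With the olfactory bulb term the Pcdhb8 difference was -0.0068.

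**Figure D3:**
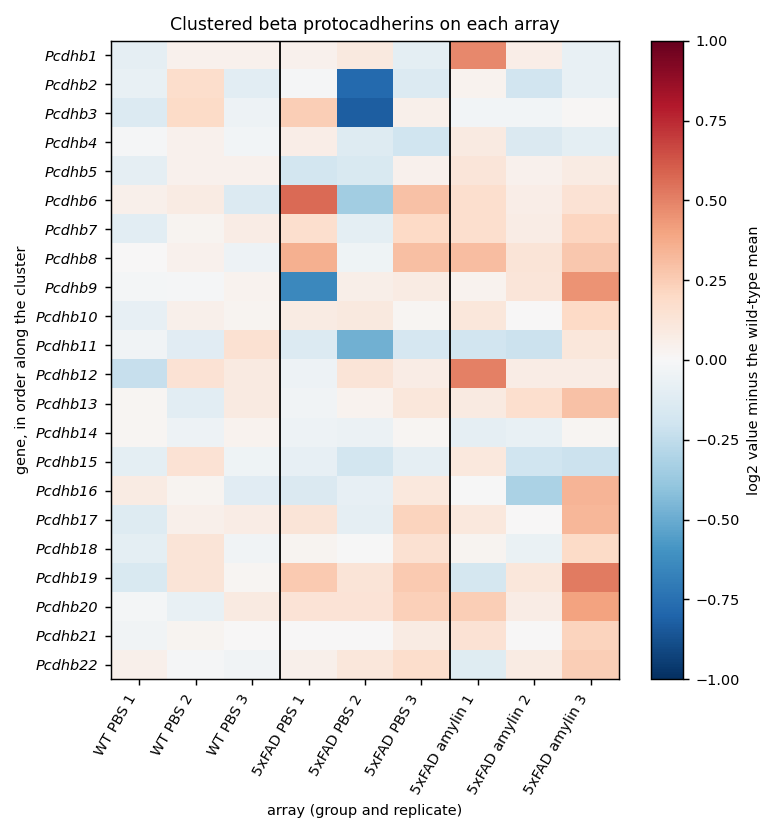
Log2 value minus the wild-type mean of the same gene (colour) for the 22 beta protocadherins in their order along the cluster (vertical axis) on each of the 9 arrays (horizontal axis). The deepest blue cells are Pcdhb2 and Pcdhb3 on PBS 5xFAD array 2, and no group of arrays is uniformly red or blue.

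The second comparison, between 5xFAD mice on amylin and on PBS, asks for effects of the hormone on the members. None of the 56 members passed, and 1 gene of 19938 did (0.00502% of all genes). With an unadjusted p under 0.05 there were 3 members, Pcdh17, Pcdhb5 and Cdh9, where 6.9% of all genes had one. The median difference was 0.02 for classical, 0.06 for clustered, 0.06 for non-clustered members and -0.02 for the other Cdh genes, against 0.0006 for all genes. The amylin arrays were all above the PBS arrays for 4 members (Pcdh17, Pcdh8, Pcdh1 and Cdh2) and all below for 1 (Cdh9), where 5.49% and 3.81% of all genes did so.

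Pcdh17, a delta-2 member that assembles presynaptic terminals of corticostriatal circuits, had the smallest p of the members. It read 9.14, 8.89 and 9.11 on the PBS arrays and 9.45, 9.37 and 9.16 on the amylin arrays, beside 9.16, 9.01 and 9.05 in wild type. The amylin arrays were the highest of all 9, the lowest of them barely so. The difference was 0.28 ± 0.09 (SE, limma adjusted p = 0.672, interval 0.08 to 0.49).

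Cdh9, a type II cadherin of hippocampal mossy fibre synapses, moved the other way. Its amylin arrays read 8.01, 7.98 and 8.04 and its PBS arrays 8.23, 8.34 and 8.15, with no overlap, while wild type read 7.79, 8.07 and 8.20 and overlapped with both. The difference was -0.23 ± 0.10 (SE, limma adjusted p = 0.712, interval -0.44 to -0.01). In Pcdhb5 it was 0.18 ± 0.07 (SE, adjusted p = 0.7), with PBS arrays of 5.81, 5.84 and 6.03 and amylin arrays of 6.11, 6.03 and 6.07.

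For the 6 members that fell in PBS 5xFAD, the amylin means were above the PBS means and no difference passed. The differences were 0.20 ± 0.16 (SE) for Pcdh20, 0.16 ± 0.14 for Pcdh19, 0.14 ± 0.09 for Pcdh8, 0.05 ± 0.04 for Pcdh1, 0.07 ± 0.11 for Cdh20 and 0.05 ± 0.06 for Cdh24, with limma adjusted p from 0.786 to 0.909. Arrays were separated for Pcdh8 and Pcdh1 and overlapped for the other 4. The PBS arrays are the same as in the first comparison, so the differences of a gene in the 2 comparisons are not independent. These 6 members were picked for low PBS values. That choice by itself favours amylin means above the PBS means, so no conclusion is drawn from the shared direction. The 95% intervals ran from -0.16 to 0.55 for Pcdh20, -0.16 to 0.49 for Pcdh19 and -0.17 to 0.31 for Cdh20, so larger rises than falls lay within them. For Pcdh1 the interval ran from -0.05 to 0.15, and a change larger than that was not within it.

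Among the clustered members 17 of 22 had a higher mean with amylin, and no gene had separated arrays. Pcdhb9 had the largest difference, 0.37 ± 0.18 (SE, limma adjusted p = 0.74), which came with 1 low PBS array: 4.37, 5.07 and 5.10 on PBS against 5.05, 5.14 and 5.46 with amylin. The median of the class, 0.06, ran from 0.0067 to 0.14 when each array was left out in turn.

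**Figure D4:**
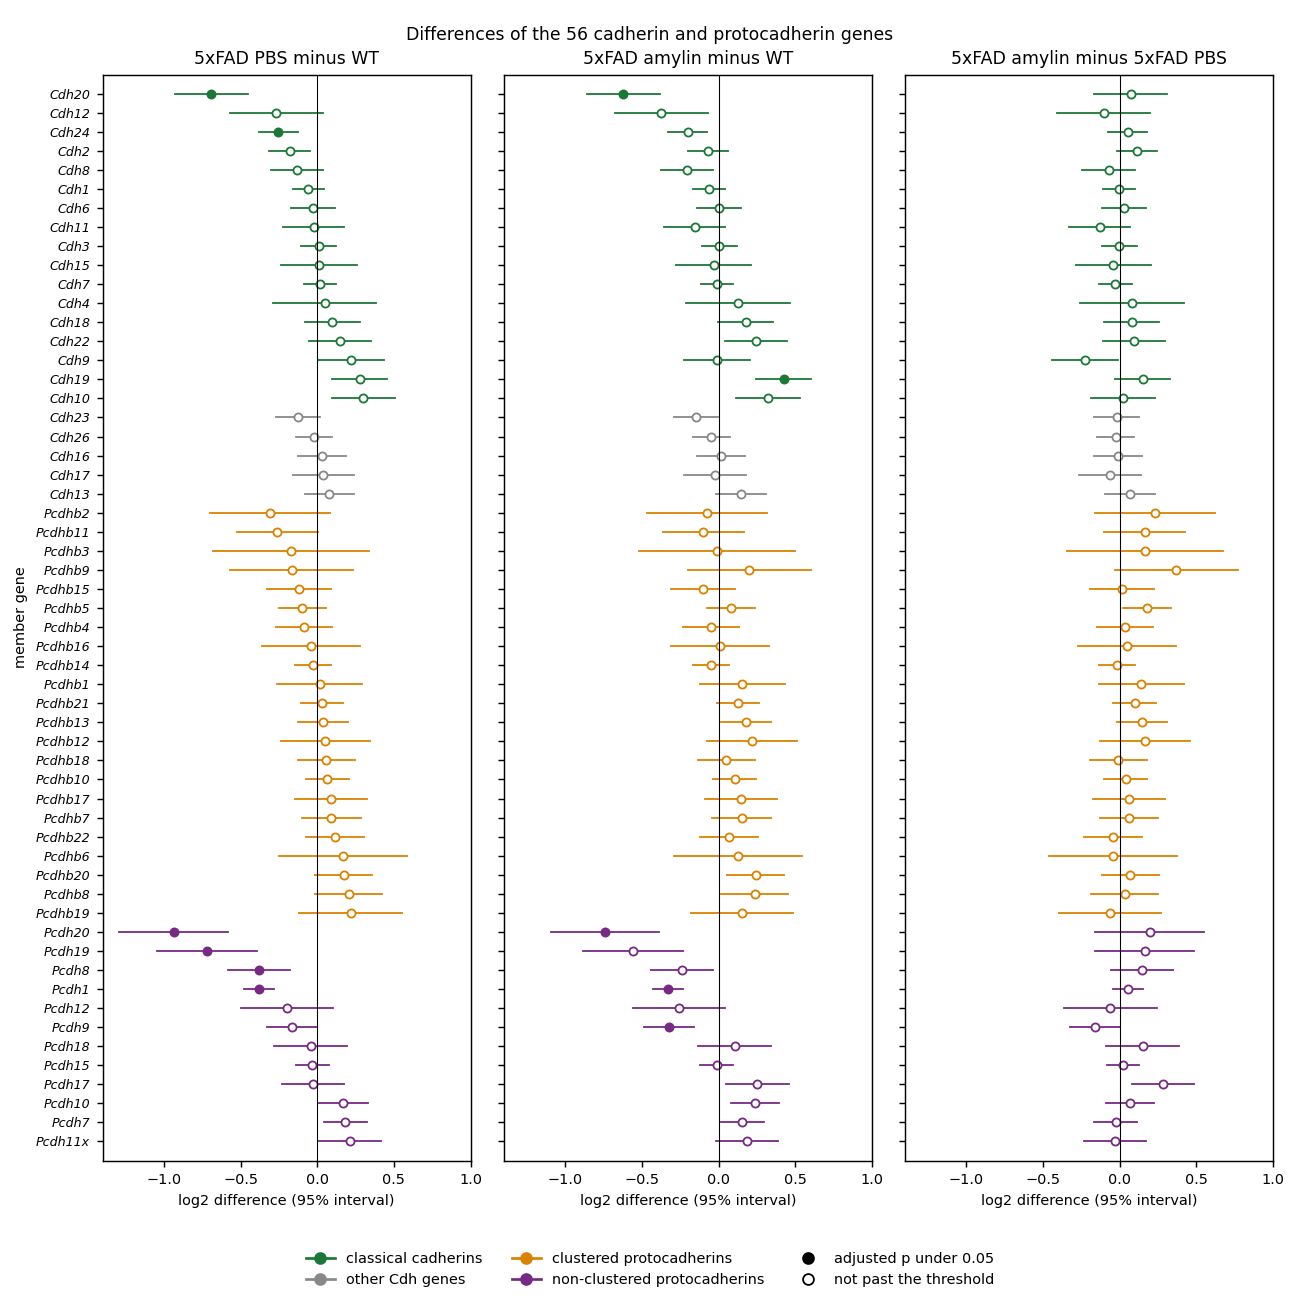
Log2 differences with 95% intervals (horizontal axis) of all 56 members (vertical axis, by class) in the 3 comparisons; filled points passed an adjusted p under 0.05. Filled points lie on the left for 6 members in the PBS comparison with wild type, 4 lie left and 1 right for amylin against wild type, and none is filled for amylin against PBS.

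The third comparison set amylin-treated 5xFAD mice against wild type. It shares the wild-type arrays with the first comparison and the amylin arrays with the second, so it is no independent repeat of either. Pcdh20, Cdh20, Pcdh1 and Pcdh9 fell and Cdh19 rose, 5 of 56 members (8.93%) where 5.21% of all genes passed, 2.86% as lower and 2.35% as higher. The count was 1 without wild-type array 1 or with the olfactory bulb term, where 447 and 403 of all genes passed in place of 1039. It was 2 without wild-type array 3 (596 of all genes) or amylin array 3 (548). Without wild-type array 2 (602) or PBS array 3 (820) it was 3. By class this was 3 of 12 non-clustered (25%), 2 of 17 classical (11.8%) and none of the 22 clustered or 5 other members. Of the clustered and the other members 3 and 1 had an unadjusted p under 0.05, where 19.2% of all genes had one. The medians were -0.13 (non-clustered), -0.0098 (classical), 0.12 (clustered) and -0.02 (other), against -0.01 over all genes. Arrays were separated for 9 members as lower and 10 as higher, against 12.3% and 10.8% of all genes (23.1% together).

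Pcdh20 fell by 0.74 ± 0.16 (SE), to 59.8% (limma adjusted p = 0.0273), next to 0.94 in the PBS comparison. With the olfactory bulb term its difference was -1.26 (adjusted p = 0.000429). The call was lost without wild-type array 1 (0.0986), 2 (0.0958) or 3 (0.0782), amylin array 2 (0.0657) or 3 (0.0606), or PBS array 3 (0.0508), which enters through the shared spread. Cdh20 fell by 0.62 ± 0.11 (SE), to 65% (adjusted p = 0.0105). It lost the call with the olfactory bulb term (-0.63 ± 0.17, SE, adjusted p = 0.130) and without wild-type array 1 (0.0557). Pcdh1 fell by 0.33 ± 0.04 (SE), to 79.6% (adjusted p = 0.00326), and lost the call with that term (-0.31 ± 0.07, SE, 0.0672). For Cdh20 and Pcdh1 the term thus changed the difference little and widened its SE.

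Pcdh9, a delta-1 protocadherin of cortical and sensory pathways, passed in this comparison alone, and its amylin arrays of 9.85, 9.99 and 9.92 lay below wild type. It fell by 0.33 ± 0.07 (SE), to 79.8% (limma adjusted p = 0.0327, interval -0.49 to -0.16). Its second probe set gave -0.30 (adjusted p = 0.109 over all 35556 probe sets). Amylin against PBS was -0.16 ± 0.07 (SE, adjusted p = 0.721), so the amylin group was not shown to differ from the PBS group. The call against wild type was lost with the olfactory bulb term (-0.14, 0.568), without wild-type array 1 (0.0868), 2 (0.112) or 3 (0.0746), amylin array 1 (0.0835) or 3 (0.0949), or PBS array 3 (0.0561).

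Cdh19 was the 1 member that rose in any comparison. Wild-type arrays read 6.26, 6.36 and 6.26, PBS arrays 6.63, 6.69 and 6.39 and amylin arrays 6.66, 6.70 and 6.80 (probe set 10357103). Both 5xFAD groups lay above wild type and overlapped with each other. Cdh19 rose by 0.43 ± 0.08 (SE), to 134% of wild type (limma adjusted p = 0.0156, interval 0.25 to 0.61). Without wild-type array 1 (0.0759) or 3 (0.063) or amylin array 3 (0.0627), or with the olfactory bulb term (0.43 ± 0.13, SE, adjusted p = 0.171), it did not pass. In the same comparison 11 of 12 microglial markers rose, 7 of 12 oligodendrocyte markers fell, and of 10 astrocyte markers 1 rose, Gfap (1.37); their part in the Cdh19 difference was not tested.

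Against wild type, 3 members that fell on PBS did not pass with amylin: Pcdh19 (-0.56, limma adjusted p = 0.0591), Pcdh8 (-0.24, 0.182) and Cdh24 (-0.20, 0.0794). For Pcdh19 the outcome turned on the setting, since it passed with the dimmer 25% (0.0444) or 50% (0.0327) of genes left out, with a trended and robust prior (0.0453), in a fit of the 2 groups alone (0.0143), and without PBS array 1 (0.00482) or 2 (0.0494). Cdh24 passed without amylin array 2 (0.0406). Cdh10 was again higher (0.32 ± 0.09, SE, adjusted p = 0.0838; 0.0462 with the dimmer 50% left out). Of the clustered genes Pcdhb20 came nearest (0.24 ± 0.08, SE, adjusted p = 0.14) and passed without amylin array 2 (0.0489).

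The genes around the members were followed through 4 lists. Of the wider cadherin superfamily, 22 of 25 listed genes were measured; 6 fell in PBS 5xFAD and none rose (27.3% called, beside 8.58% of all genes in either direction and 4.92% as lower). They were Celsr2, a planar polarity cadherin (-0.48 ± 0.06, SE, limma adjusted p = 0.00133), the postsynaptic calsyntenins Clstn3 (-0.49 ± 0.06, 0.00125) and Clstn2 (-0.56 ± 0.07, 0.00182), the giant cadherin Fat4 (-0.45 ± 0.08, 0.00871), the desmosomal Dsc3 (-0.52 ± 0.12, 0.0321) and the receptor Ret (-0.79 ± 0.21, 0.0455). The largest difference in the list was that of Cdhr1, which is also among the olfactory bulb markers (1.55 ± 0.53, SE, adjusted p = 0.119). Clstn3 read 10.16, 10.06 and 10.05 in wild type, 9.61, 9.55 and 9.63 on PBS and 9.57, 9.74 and 9.63 with amylin. Celsr2 likewise separated the genotypes, at 9.14, 9.23 and 9.12 against 8.74, 8.65 and 8.67. The 4 genes Celsr2, Clstn2, Clstn3 and Fat4 passed in all 20 alternatives of the PBS comparison. With amylin against wild type they also fell, by 0.36, 0.46, 0.44 and 0.46 (18.2% of the list called, beside 5.21% of all genes). They lost those calls with the olfactory bulb term (limma adjusted p = 0.10, 0.154, 0.0694 and 0.0685), where the differences were -0.36, -0.27, -0.41 and -0.55. The calls of Dsc3 and Ret were lost in the 2-group fit (0.0736 and 0.086), with the olfactory bulb term (differences of -0.65 and -0.77, adjusted p = 0.0605 and 0.207) and without single arrays. For Dsc3 these were wild-type arrays 1 (0.0998) and 3 (0.103) and PBS arrays 2 (0.107) and 3 (0.0963). For Ret they were wild-type arrays 1 (0.0847) and 2 (0.065), each PBS array (0.0697, 0.12 and 0.146) and amylin arrays 1 (0.0592) and 3 (0.066).

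Of 19 measured catenins and junction proteins, 2 fell on PBS against wild type (10.5%, beside 8.58% of all genes). They were the adhesion receptor Nectin1 (-0.38 ± 0.06, SE, limma adjusted p = 0.0071) and the junction scaffold Plekha7 (-0.35 ± 0.08, 0.0285). Plekha7 lost its call with the olfactory bulb term (-0.23, 0.28) and without wild-type array 1 (0.118), 2 (0.0712) or 3 (0.0571) or PBS array 1 (0.0917) or 2 (0.0718). Beta-catenin (Ctnnb1) differed by -0.05 (adjusted p = 0.618). None of the 10 measured proteases and regulators that shed cadherins passed in the 3 comparisons. On PBS against wild type, amylin against PBS and amylin against wild type, 2, 0 and 1 of them had an unadjusted p under 0.05. Of all genes 21.2%, 6.9% and 19.2% had one. Adam10 came nearest, with amylin against wild type (0.18, limma adjusted p = 0.0987). Of 24 measured protocadherin effectors and regulators of the clusters, 2 passed on PBS against wild type (8.33%, beside 8.58% of all genes), Nckap1l and Ptk2b. Nckap1l, a WAVE complex subunit of blood cells and microglia, rose by 1.16 ± 0.14 (SE, limma adjusted p = 0.00137). The microglial list was higher on the same arrays, and its part in this rise was not tested. In the list of effectors and regulators the kinase Ptk2b fell by 0.24 ± 0.06 (SE, adjusted p = 0.0372). This call was lost with repeated quantile normalization (0.0912), with centring on array medians (0.0508), in the 2-group fit (0.0516) and with the olfactory bulb term (-0.28, 0.10). It was also lost without wild-type array 2 (0.109) or 3 (0.134) or PBS array 1 (0.0957), 2 (0.109) or 3 (0.0651). The cluster regulator Ctcf read 8.53 to 8.59 in wild type and 8.53 to 8.61 on PBS. With amylin against wild type 1 of the 19 junction genes (5.26%) and 1 of the 24 effectors and regulators (4.17%) passed, beside 5.21% of all genes. Plekha7 fell by 0.39 (limma adjusted p = 0.0248). It lost that call with the olfactory bulb term (-0.24, 0.435), in the 2-group fit (0.0541), and without any 1 wild-type array or amylin array 1 or 3 (0.0522 to 0.112). Nckap1l rose by 0.87 (adjusted p = 0.00866). For amylin against PBS no gene of the 4 lists passed.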

How the data were processed

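RNA from 9 mouse brain samples (3 groups of 3) was measured on 1 array each. The deposited values are log2 intensities of 35556 probe sets, made by the authors with RMA in the R package oligo, per the submitters' processing notes, without versions. RMA corrects background, equalises quantiles and summarises probes, so global shifts between arrays are removed; array medians lay between 5.71 and 5.79. No 2 arrays were identical. No genome build of the array annotation was given in the sources, so coordinates are given only for RefSeq promoter windows.

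Probe sets naming 1 gene (21789) were kept, the brightest per gene, which gave 19938 genes without a filter on dim signal; all 56 members matched RefSeq symbols, and 54 lay above the dimmest 25% of genes. Groups were compared with limma 3.58.1 (R 4.3.3; package data.table, version 1.17.8) in 1 fit of 9 arrays with 3 group means (6 residual and 3.53 prior degrees of freedom) and Benjamini-Hochberg adjustment over all genes. Percentages of a control level are 2 to the power of the log2 difference. Classes are described by counts and medians, with no test of their own. The fit was tested on simulated data.

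Members, gene lists and alternatives were chosen with earlier results of these data known. Genes to name were drawn by rule from members past the threshold under any setting, extreme members of each class, separated members with large differences, and called or nearest genes of 4 partner lists. Not all members with separated arrays are therefore described. An example is Cdh8, lower on all PBS arrays (-0.13) and on all amylin arrays (-0.21) than in wild type, neither past the threshold. The replicate numbers were checked as pairs by the correlation of deviations from group means; r for numbers 1, 2 and 3 was 0.0937, 0.183 and 0.0645 for PBS against wild type, 0.0997, 0.13 and 0.123 for amylin against PBS, and -0.0556, -0.0543 and 0.141 for amylin against wild type. In no comparison were all 3 over 0.1, so the numbers were not treated as pairs in the main fit. For amylin against PBS this limit was missed narrowly. In each group replicate 2 had the lowest olfactory bulb and striatal list means and the highest microglial list mean. The cortical, hippocampal and thalamic lists had no such shared array. The labels do not say what the numbers stand for, so pairing is not excluded. Alternatives were other normalizations, filters, priors, weights, probe set rules, the olfactory bulb list as a term, and each array left out.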

Additional observations from a re-analysis of the deposited data

Results flagged for a closer look

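Probe sets that name several genes were not used for the members. Among them, 3 probe sets that name Cdh11 together with 2 other genes (6820431F20Rik and 2610005L07Rik) had all PBS 5xFAD arrays above all wild-type arrays, a signal outside the main measurement. They were flagged by that separation, which 11.2% of all genes showed. Since all 3 name the same genes, they are not independent measurements. The log2 differences were 0.373 (probe set 10457223, limma adjusted p = 0.109 over all probe sets), 0.463 (10577395, 0.0722) and 0.378 (10577412, 0.134), none past the threshold. Probe set 10577395 read 9.23, 9.25 and 9.08 in wild type, 9.5, 9.61 and 9.84 on PBS and 9.47, 9.37 and 9.10 with amylin. The probe set of Cdh11 alone, a type II cadherin of mesenchyme and synapses, differed by -0.02. Which of the 3 genes gave the shared signal was not tested.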

How the results depend on the processing

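The counts of members called on PBS against wild type ran from 3 (without wild-type array 3) to 6 when each array was left out, and the count was 0 throughout for amylin against PBS. For amylin against wild type they ran from 1 (without wild-type array 1) to 6, with 2 without wild-type array 3 or amylin array 3 and 3 without wild-type array 2 or PBS array 3; the olfactory bulb term gave 1 and an adjusted p under 0.1 gave 9. Over all genes, that term gave 966 and 403 calls in place of 1710 and 1039, single arrays left out gave as few as 863 and 447 (both without wild-type array 1), and an adjusted p under 0.1 gave 1723 for amylin against wild type. With the replicate number as a block, 6, 0 and 5 members passed in the 3 comparisons, with 1638, 0 and 1059 genes over all. The labels do not say whether the numbers pair the samples. With the dimmer 50% of genes left out, class medians on PBS against wild type became -0.041 (clustered) and -0.034 (non-clustered); for amylin against PBS 0.067 (other Cdh genes); and for amylin against wild type 0.15 (other), 0.0070 (clustered) and 0.11 (non-clustered). The olfactory bulb term gave -0.040 (clustered, PBS against wild type), -0.0010 (classical, amylin against PBS) and -0.024 (clustered, amylin against wild type), and array weights gave -0.011 and -0.056 for the classical members in the comparisons with amylin. Leaving out each array, medians ran from -0.034 to 0.019, -0.017 to 0.055 and -0.050 to 0.0058 for the classical members, from 0.0067 to 0.14 for the clustered (amylin against PBS), and from -0.081 to 0.065 for the other Cdh genes and -0.15 to -0.047 for the non-clustered (amylin against wild type). Signs turned for Pcdhb6 (-0.23 with the olfactory bulb term and -0.028 to 0.43 when single arrays were left out, the lowest without PBS array 1), for Pcdhb8 (-0.0068 and -0.028 with that term on PBS and with amylin) and for Cdh17 (-0.014 to 0.12, the lowest without PBS array 1, and 0.025 for amylin against PBS without amylin array 3). The causes were not tested.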

Other observations

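The alpha protocadherins were seen through 1 probe set that names 14 alpha genes at once, because they share their last exons. It read 6.4, 6.4 and 6.42 in wild type, 6.31, 6.31 and 6.42 on PBS and 6.4 on each amylin array, a difference of -0.06 for PBS against wild type (limma adjusted p = 0.629). The endothelial Cdh5, left out of the members, differed by 0.21 ± 0.07 (SE, adjusted p = 0.101) in that comparison and by 0.02 between amylin and PBS.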
